A study of Caenorhabditis elegans with 8 samples.

Results

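The histone genes of Caenorhabditis elegans are described here across a hizr-1 loss-of-function mutant and the wild type, each with and without cadmium. They were taken as every gene whose WBcel235 symbol starts with his-, hil- or htz-, except his-70, which gave 80 of the 46726 genes in the files. By the length of their coding sequence, and for the variants and linkers by their symbol, these were 17 H2A, 16 H2B, 15 H3 and 16 H4 genes, 4 genes of the H3 variant H3.3, 1 gene of the H2A variant H2A.Z, 9 genes of the linker histone H1 and 2 genes too short for any core type. HIZR-1 is a nuclear receptor of the high zinc response, and the study asked how cadmium acts through it. The groups were the hizr-1 mutant with 100 mM cadmium chloride, the same mutant at 0 mM, wild-type N2 with 100 mM cadmium chloride and wild-type N2 at 0 mM, with 2 samples in each. The mutant carries allele am286 in an N2-derived strain. The dose is written as the labels give it; its unit could not be checked, and the value lies far above the micromolar doses usual for this animal. Mixed-stage whole animals of both genotypes were grown side by side for 4 days, were then fed concentrated E. coli OP50 on noble agar minimal medium for 16 to 18 h at 20 °C, and were pooled from 10 plates per sample. The p-values rest on the spread between the 2 samples of a group, pooled over the 4 groups. Differences between cultures and between library preparations cannot be told apart in that spread.

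Core histones H2A, H2B, H3 and H4 form the protein octamer that DNA is wrapped around in the nucleosome, and H1 binds the DNA between nucleosomes. In animals, most core histone genes lack introns, lie in clusters of many near-identical copies and are transcribed chiefly while DNA is replicated, and their messenger RNA ends in a stem-loop that is bound by its own protein, CDL-1 in C. elegans. Variants such as H2A.Z and H3.3 are made from genes with introns and can be placed into chromatin outside replication.

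Total counts ran from 17681352 to 29586507 per library, and the 80 histone genes took 0.264 to 0.569% of them. The libraries were depleted of ribosomal RNA, of which 1.84 to 3.93% of counts were left. Transcript of hizr-1 itself measured 0.642 and 0.928 CPM (counts scaled to library size) in mutants with cadmium and 0.703 and 0.382 CPM in mutants without it, against 3.45 and 3.45 CPM in wild type with cadmium and 2.03 and 2.47 CPM in wild type without it. Every mutant library was below every wild-type library. All 9 intestine markers, 16 markers of germline nuclei and 19 markers of oocytes and early embryos were above 0 in every library, as whole-animal samples should hold them. In such bulk RNA, fewer cells of a type and less RNA per cell cannot be told apart.

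The annotation gives several core histone genes the same symbol, and those genes were almost without counts. Of the 80 genes, 36 shared 14 symbols: 11 H2A genes under 4 symbols, 11 H2B genes under 4, 7 H3 genes under 3 and 7 H4 genes under 3. Over all 8 libraries these 36 genes together held 54 counts, 23 of them were at 0 in every library, and the highest single count was 5. The 4 H2A genes named his-51 and the 4 H2B genes named his-52, all on chromosome V, were at 0 throughout, as were the H3 gene pair his-49, the H4 gene pair his-50 and the H2B gene pair his-58. The other 44 genes had a symbol of their own and held 841605 counts, with a median of 1344.5 for their highest count. Only 3 of these 44 stayed under 10 counts in every library, namely his-69 of the H3.3 class with at most 4, his-42 of the H3 class with at most 3, and the short his-39 with at most 2. How the authors treated reads that match several copies is not given in the sources used here, so near-absent counts of a copied gene do not show that it was silent, and a counted gene may or may not hold reads of its copies. Identity between copies was not computed, as no sequences were at hand.

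**Figure D1:**
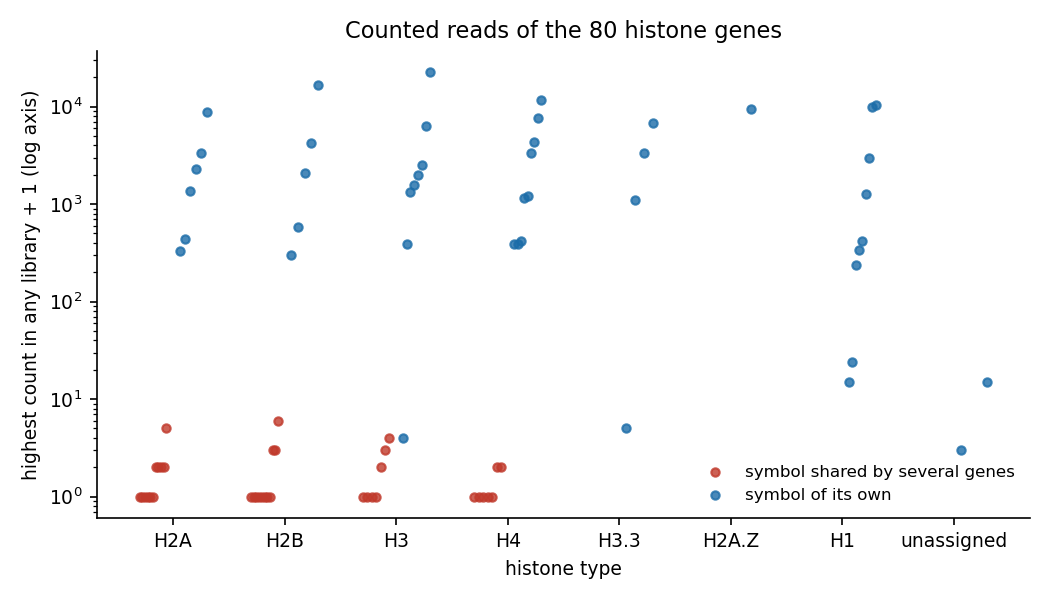
The highest count of each of the 80 genes in any library (log axis, 1 added so that 0 counts stand at 1), by histone type. Genes that share a symbol (red) reach at most 5 counts, whereas those with a symbol of their own (blue) reach up to 22632.

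After a filter on low counts 41 of the 80 genes could be tested. They were 24 core genes whose coding sequence lies in a single block (5 H2A, 4 H2B, 7 H3 and 8 H4, called intron-free below), 3 core genes with introns (his-35, his-37 and his-41), 4 variant genes (htz-1, his-71, his-72 and his-74), the 9 linker genes and the short his-73. The 39 left untested were the 36 genes with shared symbols, his-69, his-42 and his-39.

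The counted core histone reads came largely from a few loci. On chromosome IV, his-59 (H3), his-60 (H4), his-61 (H2A) and his-62 (H2B) lie within IV:7485748-7489142 and held 53.3 to 59.3% of the summed CPM of the intron-free core genes in each library. With his-63 (H3) and his-64 (H4), a pair elsewhere on chromosome IV, the share was 66.9 to 73%. Scaled by length, the mean level over all 8 libraries was 798 CPM per kilobase for his-59, 736 for his-62, 683 for his-60, 526 for his-64, 502 for his-61 and 332 for his-63. The lowest mean level among the 24 intron-free core genes was 20.0 CPM per kilobase, for the H2A gene his-7.

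The H3 gene his-59 (WBGene00001933, IV:7488217-7489142, plus strand) measured 727 and 748 CPM in mutants with cadmium, 695 and 331 CPM in mutants without it, 407 and 554 CPM in wild type with cadmium, and 397 and 884 CPM in wild type without it. The H2B gene his-62 (WBGene00001936, IV:7486535-7487173, plus strand) measured 539 and 538 CPM in mutants with cadmium, 611 and 197 CPM in mutants without it, 349 and 415 CPM in wild type with cadmium, and 319 and 791 CPM in wild type without it. Both genes were close between the 2 libraries of each cadmium group and far apart between the 2 libraries of each group without cadmium. The H4 gene his-60 (WBGene00001934, IV:7487567-7488010, minus strand) measured 372 and 371 CPM in mutants with cadmium, 371 and 158 CPM in mutants without it, 215 and 260 CPM in wild type with cadmium, and 199 and 480 CPM in wild type without it. The H2A gene his-61 (WBGene00001935, IV:7485748-7486217, minus strand) measured 280 and 286 CPM in mutants with cadmium, 292 and 125 CPM in mutants without it, 154 and 205 CPM in wild type with cadmium, and 153 and 392.1 CPM in wild type without it. For all 4 genes replicate 2 of the mutant without cadmium gave the lowest value, and replicate 2 of the wild type without cadmium gave the highest.

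Most core histone genes stand in head-to-head pairs. There were 31 such pairs, 16 of an H2A with an H2B gene, 14 of an H3 with an H4 gene and 1 of an H4 with an H2A gene (his-67 with his-68), separated by 196 to 317 bases with a median of 253. Both partners were tested in 12 pairs, and 1 partner had counts and the other next to none in 2 pairs (his-16 beside his-15, and his-48 beside his-47). In the other 17 pairs neither partner had 10 counts in any library. Across the 8 libraries the log2 CPM of the 2 partners correlated with r of 0.856 (his-35 and his-41) to 0.993 (his-60 and his-59), a description over libraries that share their depth and scaling. Such values were not particular to partners. Each intron-free core gene correlated with the median of the other such genes at 0.810 to 0.999, with a median of 0.967. The partners kept a narrow ratio in some pairs, such as 1.84 to 2.13 for his-59 over his-60, and a wider one in others, such as 2.72 to 4.96 for his-32 over his-31.

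Summed over the 61 intron-free core genes, histone transcripts measured 3319 and 3337 CPM in mutants with cadmium, 3323 and 1399 CPM in mutants without it, 2112 and 2513 CPM in wild type with cadmium, and 1820 and 4442 CPM in wild type without it. Nearly all of these counts came from the 24 tested genes, so the sums may miss reads of the other copies. The group means were 3328 ± 13.1 CPM in mutants with cadmium, 2361 ± 1361 CPM in mutants without it, 2313 ± 284 CPM in wild type with cadmium and 3131 ± 1854 CPM in wild type without it (SD, n = 2 each). The highest library was thus 3.17 times the lowest, and both extremes were libraries without cadmium. Within a group the higher library was 1.01 times the lower in mutants with cadmium, 2.38 times in mutants without it, 1.19 times in wild type with cadmium and 2.44 times in wild type without it.

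The same libraries were highest and lowest in all 4 core types. The H3 sum was 1179 and 1195 CPM in mutants with cadmium, 1158 and 532 CPM in mutants without it, 716 and 901 CPM in wild type with cadmium, and 634 and 1439 CPM in wild type without it. The H4 sum was 931 and 937 CPM in mutants with cadmium, 881 and 390 CPM in mutants without it, 601 and 675 CPM in wild type with cadmium, and 491 and 1259 CPM in wild type without it. In both types replicate 2 of the unexposed wild type was highest and replicate 2 of the unexposed mutant lowest, and the same held for H2B and H2A. The H2B sum was 722 and 723 CPM in mutants with cadmium, 802 and 268 CPM in mutants without it, 522 and 584 CPM in wild type with cadmium, and 440 and 1089 CPM in wild type without it. The H2A sum was 486 and 482 CPM in mutants with cadmium, 482 and 210 CPM in mutants without it, 274 and 354 CPM in wild type with cadmium, and 255 and 655 CPM in wild type without it. The proportions between types moved little beside this: of the summed CPM, not scaled by length, H3 genes held 32.4 to 38%, H4 genes 26.5 to 28.4%, H2B genes 19.2 to 24.7% and H2A genes 13 to 15% in every library. These shares rest on the copies that were counted. Tested were 5 of 16 H2A, 4 of 15 H2B, 7 of 15 H3 and 8 of 15 H4 genes.

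**Figure D2:**
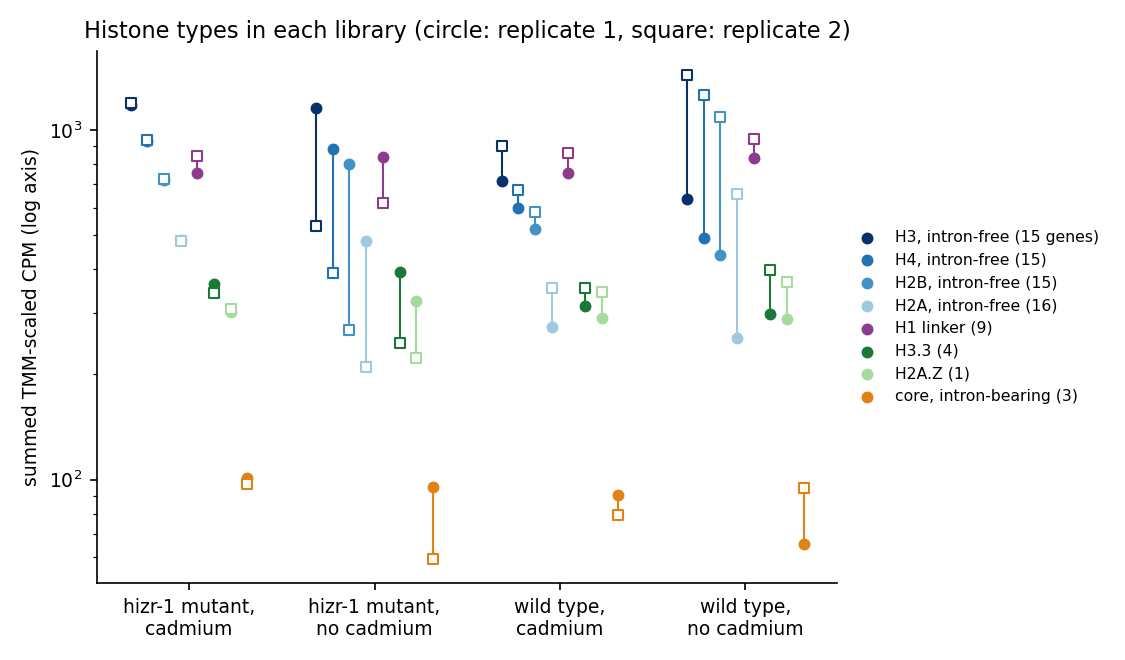
Summed CPM (log axis) of each histone type in each library, by group; a circle is replicate 1, a square replicate 2, and a line joins the 2. The 4 intron-free core types (blue shades) spread most in both groups without cadmium, whereas linker, variant and intron-bearing genes spread less.

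The variant genes varied less between libraries. The H2A.Z gene htz-1 (WBGene00019947, IV:4446002-4447006, plus strand) measured 302 and 308 CPM in mutants with cadmium, 324 and 223 CPM in mutants without it, 289 and 344 CPM in wild type with cadmium, and 287 and 368 CPM in wild type without it. Among the H3.3 genes, his-72 (WBGene00001946, III:12367475-12369050, minus strand) measured 220 and 207 CPM in mutants with cadmium, 240 and 151 CPM in mutants without it, 200 and 228 CPM in wild type with cadmium, and 184 and 238 CPM in wild type without it. For both genes the lowest library was replicate 2 of the unexposed mutant, and the cadmium groups overlapped with their unexposed groups. The H3.3 genes his-74 and his-71 ran from 74.6 to 129.5 CPM and from 19.7 to 36 CPM over the 8 libraries. Per kilobase the mean levels were 327 CPM for his-72, 320 for htz-1, 174 for his-74 and 49.5 for his-71, while his-69 was next to uncounted.

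The 3 core genes with introns lie together on chromosome V. The H2A gene his-35 (V:9544651-9545288) measured 44.0 and 44.5 CPM in mutants with cadmium, 45.8 and 25 CPM in mutants without it, 36.6 and 31.7 CPM in wild type with cadmium, and 26.9 and 45.0 CPM in wild type without it. The H4 gene his-37 ran from 22.3 to 38.8 CPM and the H2B gene his-41 from 12 to 19.7 CPM. Over 174 of its 530 bases his-41 overlaps C50F4.6 on the same strand, and how reads there were divided is not given; his-41 had up to 582 counts and C50F4.6 up to 393. At his-37 the overlap, with nstp-10 on the other strand, was 2 bases, and nstp-10 had up to 2209 counts.

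Linker histone levels differed widely between genes. The H1 sum was 756 and 845 CPM in mutants with cadmium, 839 and 620 CPM in mutants without it, 756 and 858 CPM in wild type with cadmium, and 834 and 941 CPM in wild type without it. Most of it came from hil-5 and hil-4. The gene hil-5 (WBGene00001856) measured 314 and 342 CPM in mutants with cadmium, 330 and 250 CPM in mutants without it, 313 and 386 CPM in wild type with cadmium, and 334 and 388 CPM in wild type without it. The gene hil-4 (WBGene00001855) measured 290 and 324 CPM in mutants with cadmium, 339 and 250 CPM in mutants without it, 279 and 323 CPM in wild type with cadmium, and 367 and 395 CPM in wild type without it. In both genes replicate 2 of the unexposed mutant was lowest and replicate 2 of the unexposed wild type highest, as in the core genes, but over a range of 1.55-fold and 1.58-fold. Mean levels per kilobase were 383 CPM for hil-5, 329 for hil-4, 115 for hil-2, 40.5 for his-24, the H1 gene tied to germline silencing, 14 for hil-3, 11.9 for hil-7 and 5.58 for hil-1, while hil-8 at 1.55 and hil-6 at 0.731 rested on at most 23 and 14 counts in a library. The library order of the core genes was not general to the linkers: his-24 measured 29.0 and 48.7 CPM in mutants with cadmium, 37.6 and 29.2 CPM in mutants without it, 43.3 and 31.5 CPM in wild type with cadmium, and 36.2 and 36.4 CPM in wild type without it.

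Between the 8 libraries the intron-free core genes varied more than most genes. Their highest CPM was 2.30 to 4.71 times their lowest, with a median of 3.04, from his-7 at the low end to his-31 at the high end. The median was 1.74 for intron-bearing core genes, 1.69 for variant genes, 1.68 for linker genes and 1.70 for all 15818 genes tested. On the log2 scale the median SD was 0.55 for intron-free core genes and 0.19 for all genes. As a description over 8 libraries, the correlation of log2 levels with the median of the intron-free core genes, each such gene being left out of the median it was set against, was 0.810 (his-16) to 0.999 (his-6) among those genes themselves. It was 0.742 to 0.901 for variant genes, 0.838 to 0.937 for intron-bearing core genes and 0.0594 (hil-1) to 0.912 (hil-2) for linker genes. The pattern of his-6, an H3 gene, was the most like that median, followed by his-2 of the same type at 0.992.

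Most of that variation lay between the 2 libraries of a group without cadmium. On the log2(CPM + 1) scale, replicate 2 minus replicate 1 had a median over the 24 intron-free core genes of 0.0023 in mutants with cadmium, -1.15 in mutants without it, 0.14 in wild type with cadmium and 1.27 in wild type without it. All 24 genes were lower in replicate 2 of the unexposed mutant, with differences of -1.63 to -0.71, and all 24 were higher in replicate 2 of the unexposed wild type, with differences of 1.02 to 1.53. The other 17 tested histone genes differed by medians of 0.06 in mutants with cadmium, -0.47 in mutants without it, -0.13 in wild type with cadmium and 0.27 in wild type without it. Over all tested genes, the 5th and the 95th percentile of the difference were -0.71 and 0.37 in the unexposed mutant and -0.47 and 0.71 in the unexposed wild type.

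Gene length moved with the same libraries. Among 2656 other protein-coding genes of 312 to 743 bases, the length range of the intron-free core genes, the median difference was -0.43 in mutants without cadmium and 0.32 in wild type without it. For the 962 of them that were at least as abundant as the lowest core gene it was -0.65 in unexposed mutants and 0.57 in unexposed wild type. For the 43 of those 962 with 1 exon block it was -1.06 in unexposed mutants and 0.81 in unexposed wild type. Their 5th and 95th percentiles were -1.54 and -0.42 in unexposed mutants and 0.25 and 1.83 in unexposed wild type. The core medians were -1.15 and 1.27, beside -1.06 and 0.81 for the medians of these 43 genes. They lay within the percentiles of the 43 single genes, an unlike measure. The 42 genes of ribosomal proteins in this length range were not matched to the core histone genes in level or exon number. Their median difference was -0.03 in mutants with cadmium, -0.95 in mutants without it, 0.15 in wild type with cadmium and 0.90 in wild type without it. In unexposed wild type the 95th percentile was 1.04 for the 2656 genes, 1.19 for the 962 and 1.26 for the ribosomal protein genes. In unexposed mutants the 5th percentile was -1.10 for the 2656 genes, -1.22 for the 962 and -1.38 for the ribosomal protein genes. After a smooth trend of level on gene length was taken out of each library, a step chosen after seeing the data, the intron-free core genes still differed by -0.51 in mutants without cadmium and 0.77 in wild type without it. Before that step the same medians were -1.17 in mutants and 1.31 in wild type. The part of gene length in the core histone differences was not tested.

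**Figure D3:**
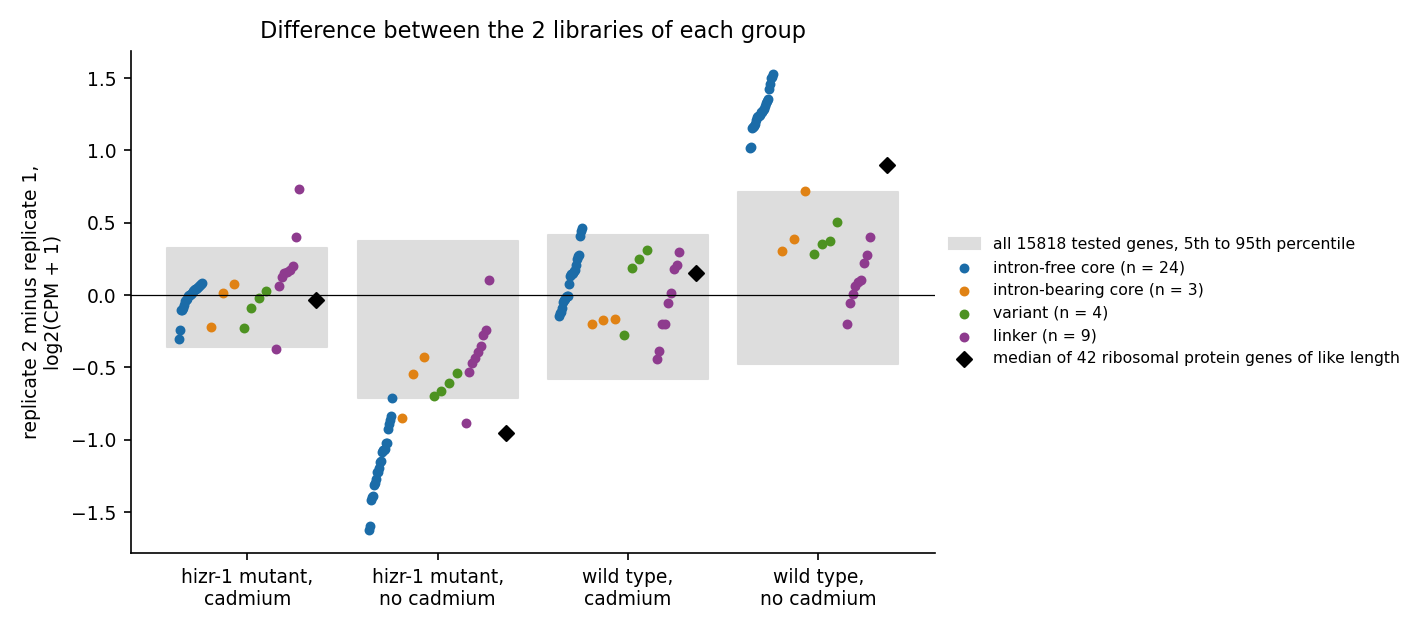
Replicate 2 minus replicate 1 on the log2(CPM + 1) scale for each tested histone gene (points, his-73 left out) in each group, with the 5th to 95th percentile of all tested genes (grey) and the median of 42 ribosomal protein genes of like length (diamonds). Nearly all intron-free core genes lie outside the grey band in both groups without cadmium, on opposite sides of 0, and the diamonds lie on the same sides. The band covers genes of all lengths and levels.

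Cadmium in the mutant was the first of 5 contrasts tested. None of the 41 histone genes passed, at an adjusted p under 0.05 by edgeR's quasi-likelihood test with Benjamini-Hochberg adjustment, beside 0.0316% of all 15818 genes, and DESeq2 and limma-voom called 0 as well. At an unadjusted p under 0.05 the count was also 0 of 41, beside 1.78% of all genes. All 24 intron-free core genes had a log2 fold change (mutant with cadmium over mutant without it) above 0, with a median of 0.50, and the other 17 tested histone genes had a median of 0.20, beside 0.00 for all genes. By type the core medians were 0.52 for H2A, 0.48 for H2B, 0.49 for H3 and 0.52 for H4.

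In that contrast the H4 gene his-1 differed most. It measured 108 and 111 CPM in mutants with cadmium, against 85.3 and 40.3 CPM in mutants without it. Its groups did not overlap, and its log2 fold change was 0.80 ± 0.54 (SE, 95% interval -0.50 to 2.10, edgeR adjusted p = 1.00), with a range of 0.36 to 1.44 when 1 library was left out. The H4 gene his-38 measured 36.7 and 37.1 CPM in mutants with cadmium, against 28.6 and 15.6 CPM in mutants without it, a log2 fold change of 0.73 ± 0.51. The H2A gene his-3 measured 74.2 and 72.2 CPM in mutants with cadmium, against 61.1 and 29.6 CPM in mutants without it, a log2 fold change of 0.69 ± 0.52. The groups were apart for 9 of the 24 intron-free core genes, all higher with cadmium, beside 16.7% of all genes. Without replicate 2 of the unexposed mutant the core median was -0.01, and without its replicate 1 it was 1.25. With the length trend removed it was 0.27.

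In the wild type the core genes leaned the other way. Again 0 of 41 histone genes passed by edgeR, and 0 by DESeq2 and by limma-voom, beside 0.284% of all genes, and 1 of 41, the linker gene hil-1, had an unadjusted p under 0.05, beside 11.5% of all genes. The log2 fold change (wild type with cadmium over wild type without it) was below 0 for all 24 intron-free core genes, with a median of -0.31, and the other 17 had a median of 0.02. With plain library totals in place of TMM scaling, 21 of 24 were below 0 with a median of -0.14, while the median of all genes moved to 0.15. The core medians were -0.52 for H2A, -0.31 for H2B, -0.21 for H3 and -0.40 for H4.

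The H2A gene his-16 (II:13817759-13818143) had the largest difference. It measured 7.31 and 7.03 CPM in wild type with cadmium, against 6.99 and 20.9 CPM in wild type without it, so that 1 unexposed library lay below both exposed ones. Its log2 fold change was -0.95 ± 0.55 (SE, edgeR adjusted p = 0.562). The linker gene hil-1 measured 8.09 and 5.96 CPM in wild type with cadmium, against 4.35 and 3.65 CPM in wild type without it. Its groups did not overlap, and its log2 fold change of 0.81 ± 0.26 did not pass (edgeR adjusted p = 0.325). For his-61 the log2 fold change was -0.60 ± 0.54 (edgeR adjusted p = 0.702).

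The groups overlapped for all 24 intron-free core genes in the wild type, whereas 21.3% of all genes were lower and 18.3% higher in both exposed libraries. Leaving out replicate 2 of the unexposed wild type turned the core median to 0.48, with all 24 genes above 0. Leaving out its replicate 1 made it -0.83, and his-16 then passed (-1.55, edgeR adjusted p = 0.0221), beside 2.6% of all genes.

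Variant and intron-bearing core genes and the abundant linker genes hil-5 and hil-4 had narrower errors. For his-72 the log2 fold change was 0.12 ± 0.21 in the mutant and 0.02 ± 0.21 in the wild type (SE), with 95% intervals of -0.34 to 0.58 and -0.44 to 0.48. For htz-1 it was 0.16 ± 0.19 in the mutant and -0.05 ± 0.19 in the wild type, and for hil-5 it was 0.18 ± 0.18 in the mutant and -0.05 ± 0.18 in the wild type. For hil-4 it was 0.06 ± 0.17 in the mutant and -0.34 ± 0.17 in the wild type (edgeR adjusted p = 0.477). In the wild type both exposed libraries were below both unexposed ones for hil-4, as for 21.3% of all genes. The H3.3 gene his-71 had 0.38 ± 0.22 in the mutant and 0.30 ± 0.22 in the wild type, and his-74 had 0.12 ± 0.24 in the mutant and -0.34 ± 0.24 in the wild type. Among the core genes with introns, his-35 had 0.32 ± 0.31 in the mutant and -0.07 ± 0.31 in the wild type, his-37 had 0.38 ± 0.21 in the mutant and 0.23 ± 0.21 in the wild type, and his-41 had 0.43 ± 0.21 in the mutant and 0.15 ± 0.21 in the wild type. For his-59, of the intron-free core, the SE was 0.47, with 0.52 in the mutant (95% interval -0.62 to 1.66) and -0.42 in the wild type (-1.56 to 0.73). The intervals of his-72 and of his-59 all spanned 0.

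Mutant and wild type without cadmium were compared next; this contrast shares the unexposed libraries with both cadmium contrasts. By edgeR 0 of 41 histone genes passed, and 0 by DESeq2 and by limma-voom, beside 0.126% of all genes, and none of the 41 had an unadjusted p under 0.05, beside 10.8% of all genes. All 24 intron-free core genes had a log2 fold change (mutant over wild type) below 0, with a median of -0.38, and the groups overlapped for every one of them, beside 19.2% of all genes lower in both mutant libraries. The H2B gene his-48 measured 114 and 42.9 CPM in mutants, against 78.9 and 199 CPM in wild type, a log2 fold change of -0.82 ± 0.55 (SE, edgeR adjusted p = 0.716) that ran from -1.69 to -0.0074 with 1 library left out. The H4 gene his-67 measured 121 and 48.1 CPM in mutants, against 70.7 and 206 CPM in wild type, a log2 fold change of -0.71 ± 0.58 (edgeR adjusted p = 0.793). The short his-73 had 0.508 and 0.218 CPM in mutants, against 0.214 and 0.285 CPM in wild type. The core median was -1.10 without mutant replicate 1, 0.14 without mutant replicate 2, -0.90 without wild-type replicate 1 and 0.41 without wild-type replicate 2. With the length trend removed it was -0.21.

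With cadmium present the core genes were higher in mutant than in wild type in nearly every case, but the difference did not pass in the fit of all libraries. This contrast shares the exposed libraries with both cadmium contrasts. By edgeR 0 of 41 histone genes passed, and 0 by DESeq2 and by limma-voom, beside 4.26% of all genes, and none had an unadjusted p under 0.05, beside 11.2% of all genes. The median log2 fold change (mutant over wild type) was 0.50 for the 24 intron-free core genes, 23 of them above 0, and 0.05 for the other 17. Both mutant libraries were above both wild-type libraries for 23 of the 24, beside 20.8% of all genes. The exception was the H2B gene his-48, with 107 and 113 CPM in mutants, against 115 and 105 CPM in wild type. The core medians were 0.58 for H2A, 0.27 for H2B, 0.49 for H3 and 0.54 for H4.

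The largest core difference was again that of his-16, which measured 14.1 and 14.9 CPM in mutants with cadmium, against 7.31 and 7.03 CPM in wild type with cadmium. Its log2 fold change was 1.01 ± 0.55 (SE, 95% interval -0.32 to 2.34, edgeR adjusted p = 0.716). For his-61, 280 and 286 CPM in mutants stood against 154 and 205 CPM in wild type, a log2 fold change of 0.65 ± 0.54. For his-59, 727 and 748 CPM in mutants stood against 407 and 554 CPM in wild type, a log2 fold change of 0.62 ± 0.47. The short his-73 had a log2 fold change of 1.15 ± 0.61 at 0.450 and 0.412 CPM in mutants, against 0.239 and 0.134 CPM in wild type, near the level of 3 counts (0.101 to 0.170 CPM).

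Whichever library was left out, the core median of this contrast stayed between 0.39 and 0.54. Leaving out an unexposed library, which is in neither group of this contrast, could hardly move it and gave 0.48 to 0.50. Without mutant replicate 1 or 2 with cadmium it was 0.50 or 0.51. Without wild-type replicate 1 or 2 with cadmium it was 0.39 or 0.54. In a fit of the 4 cadmium libraries alone, with its own filter of 15365 genes and 40 histone genes, edgeR called 13 histone genes, all intron-free core genes and all higher in the mutant, beside 8.38% of all genes. In that fit the log2 fold change was 0.64 for his-61, 0.61 for his-59 and 1.00 for his-16. Leaving out only replicate 2 of the unexposed wild type let his-16 pass (1.01, edgeR adjusted p = 0.0454), beside 6.39% of all genes.

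The interaction subtracts the cadmium difference of the wild type from that of the mutant. By edgeR 0 of 41 histone genes passed, and 0 by DESeq2 and by limma-voom, beside 0.114% of all genes, and none had an unadjusted p under 0.05, beside 3.24% of all genes. The median was 0.83 for the intron-free core genes, all 24 above 0, and 0.17 for the other 17 tested histone genes, beside 0.03 for all genes. The largest values were 1.14 ± 0.77 for his-16, 1.12 ± 0.72 for his-38 and 1.08 ± 0.82 for his-67 (SE, edgeR adjusted p = 1.00 for each). Without replicate 2 of the unexposed wild type the core median was 0.06, and without replicate 2 of the unexposed mutant 0.29. Without replicate 1 of those groups it was 1.33 for the wild type, where his-38 passed (1.71, edgeR adjusted p = 0.0277) beside 0.437% of all genes, and 1.61 for the mutant. With the length trend removed the core median was 0.50.

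**Figure D4:**
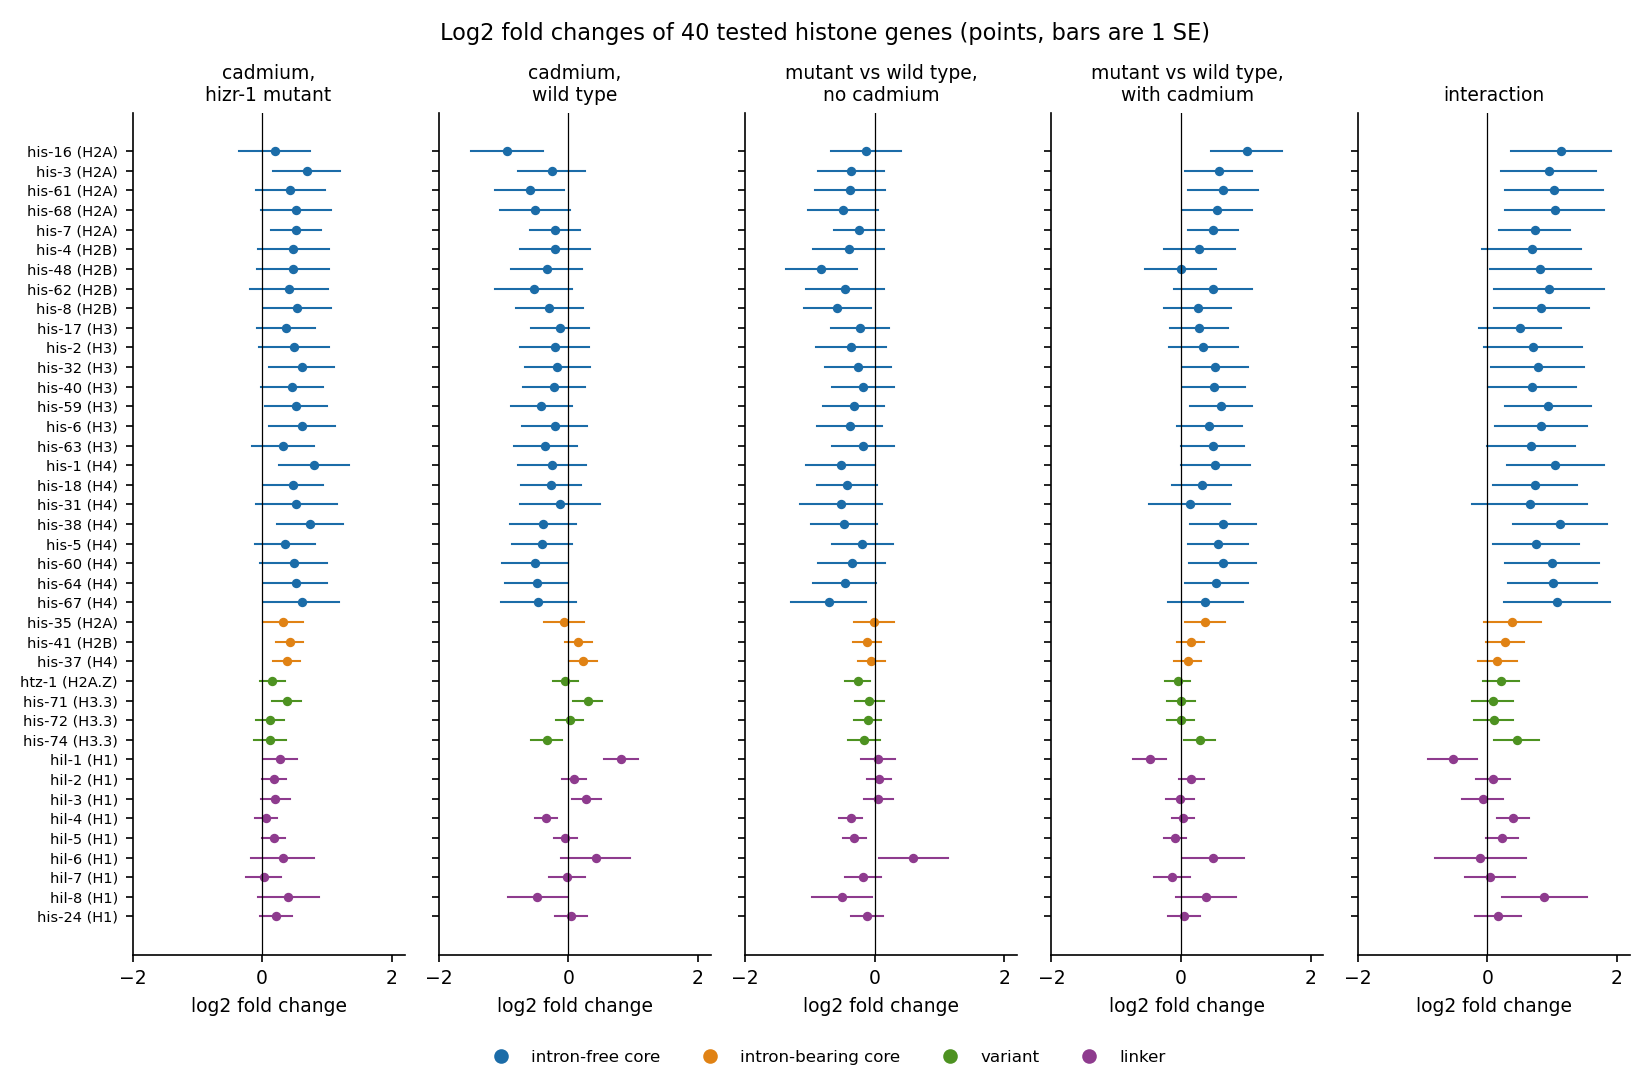
Log2 fold changes (points) with 1 SE (bars) of 40 tested histone genes in the 5 contrasts, by class; his-73 is left out. The bars of intron-free core genes are wider than those of variant and intron-bearing genes, and no gene passed in any contrast.

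**Figure D5:**
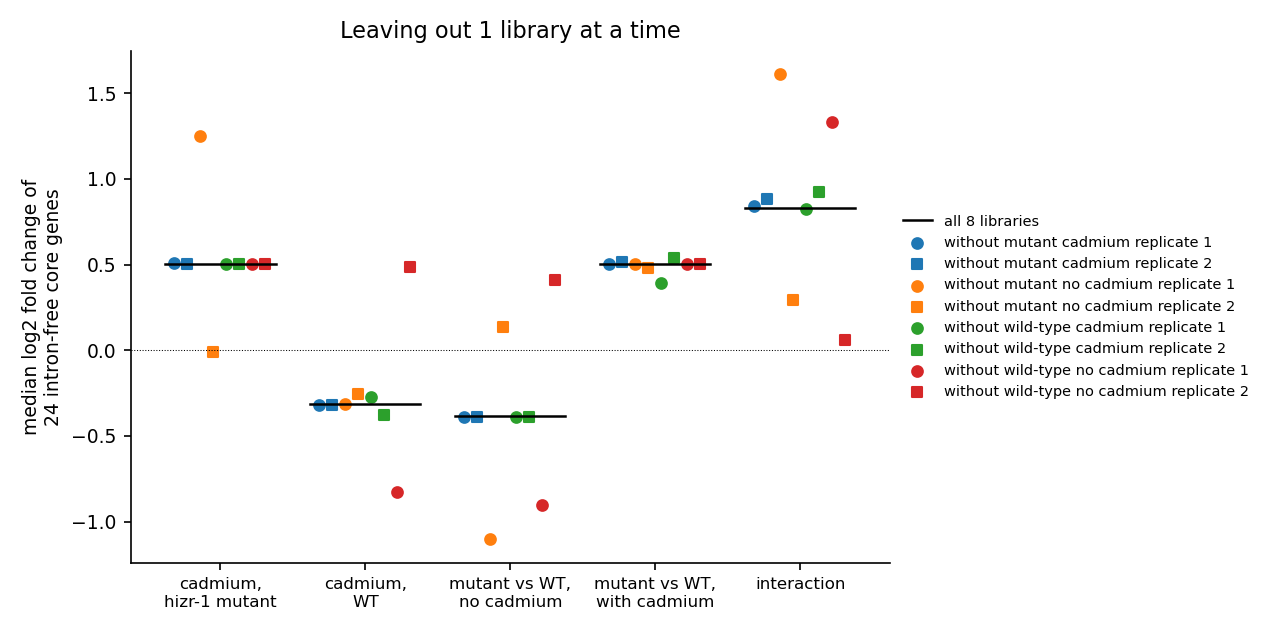
Median log2 fold change of the 24 intron-free core genes in each contrast with all 8 libraries (line) and with 1 library left out (points; WT is wild type). The median crosses or reaches 0 in both cadmium contrasts and in the comparison without cadmium, and it stays between 0.39 and 0.54 in the comparison with cadmium.

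Genes that act with histones were closer between libraries than the core histone genes. In the 17 genes of histone supply and chaperones, which include the stem-loop binding protein gene cdl-1 and the nucleosome assembly genes chaf-1 and unc-85, 0 passed in any contrast, and the medians of the log2 fold change were -0.04 for cadmium in the mutant, -0.16 for cadmium in the wild type, -0.18 for mutant over wild type without cadmium and -0.04 with it. Their summed level was 4748 and 5008 CPM in mutants with cadmium, 4993 and 5215 CPM in mutants without it, 4497 and 5417 CPM in wild type with cadmium, and 5693 and 5550 CPM in wild type without it. The 2 unexposed libraries of a genotype were thus close, where the sums over all intron-free core genes were 2.38-fold apart in mutants and 2.44-fold in wild type. This list and the lists below were not matched to the core genes in length, which moved with the same libraries. Of 34 DNA replication genes, 33 were tested and 0 passed, with medians of -0.02 for cadmium in the mutant, -0.15 for cadmium in the wild type, -0.14 for mutant over wild type without cadmium and -0.01 with it. Their summed level was 6580 and 7305 CPM in mutants with cadmium, 6750 and 7695 CPM in mutants without it, 6487 and 7745 CPM in wild type with cadmium, and 8155 and 7944 CPM in wild type without it. For the centromeric H3 genes hcp-3 and cpar-1 and their loading factor gene knl-2, 0 of 3 passed.

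The germline and embryos hold dividing nuclei, and the markers of germline nuclei, oocytes and embryos gave no calls. Of 16 germline nucleus markers, 0 passed in any contrast. Their median log2 fold change was -0.10 for cadmium in the mutant (3 of 16 above 0), -0.26 for cadmium in the wild type (1 of 16), -0.10 for mutant over wild type without cadmium (4 of 16), 0.04 with it (11 of 16) and 0.12 for the interaction (15 of 16). Their summed level was 2444 and 2886 CPM in mutants with cadmium, 2793 and 3016 CPM in mutants without it, 2313 and 2880 CPM in wild type with cadmium, and 3392 and 3332 CPM in wild type without it. Of 19 oocyte and early embryo markers, 0 passed as well. Their median was -0.05 for cadmium in the mutant (5 of 19 above 0), -0.23 for cadmium in the wild type (1 of 19), -0.27 for mutant over wild type without cadmium (0 of 19), -0.06 with it (3 of 19) and 0.17 for the interaction (19 of 19). Their summed level was 14631 and 16445 CPM in mutants with cadmium, 15569 and 17138 CPM in mutants without it, 14731 and 18211 CPM in wild type with cadmium, and 19920 and 19000 CPM in wild type without it. The medians of both lists thus had the sign of the core histone median for cadmium in the wild type, for mutant over wild type without cadmium and for the interaction, and the opposite sign for cadmium in the mutant. For mutant over wild type with cadmium they split, at 0.04 and -0.06 beside a core histone median of 0.50. The contrasts of like sign all include the unexposed wild type, so they are not separate agreements. In those contrasts the lists of histone supply and of DNA replication had the same signs, with interaction medians of 0.10 (17 of 17 above 0) and 0.11 (29 of 33). By library, the germline and oocyte sums were highest in replicate 1 of the unexposed wild type. The core histone sum was 1820 CPM there and 4442 CPM in replicate 2. The part of any of these lists in the core histone differences was not tested. Among 13 zygotic embryo markers 9 could be tested and 0 passed, and their summed level was 33.3 to 48.1 CPM over all libraries. Their median was 0.27 for cadmium in the mutant (7 of 9 above 0) and 0.38 for cadmium in the wild type (9 of 9). It was 0.20 for mutant over wild type without cadmium (7 of 9), 0.04 with it (5 of 9) and -0.15 for the interaction (2 of 9). Its sign was opposite to that of the core histone median in the contrasts where the germline and oocyte lists shared it. The part of this list was not tested either. The 14 matched sperm markers, of which 1 was at 0 in each library, differed more: their summed level was 94.1 and 107 CPM in mutants with cadmium, 137 and 87.3 CPM in mutants without it, 11.4 and 28.9 CPM in wild type with cadmium, and 32.2 and 75.6 CPM in wild type without it. Of 12 tested sperm markers, 4 were higher in mutant than in wild type with cadmium by edgeR, beside 3.83% of all genes, and 0 passed in the other contrasts. The part of sperm RNA in the core histone differences was not tested.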

How the data were processed

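RNA of whole animals was sequenced after ribosomal RNA depletion, per the labels' protocols. The submitters' processing notes name STAR 2.0.4b, Subread, featureCounts 1.45 and the build WBcel235. Strand setting and the treatment of reads with several matches are not given in the sources used here. The deposited count column held whole reads per gene. The deposited CPM column divided each count by its library's total, and the authors' RPKM divided that CPM by gene length in kilobases, per the file headers; both recomputed from counts and lengths for all 46726 genes (tolerance 1e-06). A floor of 3 counts was 0.101 to 0.170 CPM, and floors cover counting error only.

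Symbols came from a WBcel235 annotation, in which all 80 members were found; 61.72% of its shared genes had the files' coordinates, so coordinates are those of the files. The members, classes and gene lists were chosen with earlier results of these data known. Printed CPM values were rescaled with TMM factors (0.911 to 1.07). Counts were tested with edgeR 4.0.16 (R 4.3.3), by its quasi-likelihood F test, after filterByExpr by group (minimum count 10, minimum total 15; 15818 genes), with 4 group means over all 8 libraries, 2-sided, Benjamini-Hochberg over all tested genes at 0.05, tested on simulated data. The SE is the absolute log2 fold change over the square root of F. Named genes were the variants and linkers, the 3 members of highest CPM of each core type and the 3 of largest fold change in each contrast; genes named beyond these were chosen after their values were seen. Alternatives were DESeq2 1.42.0, limma-voom (limma 3.58.1), other scalings and filters, only the libraries of a contrast, each library left out, the replicate block and, chosen after seeing the data, a length trend removed. No 2 libraries agreed within sampling noise, the lowest chi-square per degree of freedom being 8.57. That value was between replicate 2 of the mutant with cadmium and replicate 1 of the mutant without it. The 2 libraries of a group gave 22.0 in mutants with cadmium, 46.8 in mutants without it, 29.2 in wild type with cadmium and 55.9 in wild type without it. Some libraries of different groups were thus closer than replicates.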

Additional observations from a re-analysis of the deposited data

How the results depend on the processing

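The count of histone genes called was 0 in every contrast under DESeq2, limma-voom, 3 other scalings, 2 other filters, the replicate block and the removed length trend. It was 13 for mutant over wild type with cadmium when only the libraries of that contrast were fitted. The cause was not tested. With 1 library left out it ranged from 0 to 1 for cadmium in the wild type, for the interaction and for mutant over wild type with cadmium, and was 0 otherwise. The core median ranged from -0.0068 to 1.25 for cadmium in the mutant, -0.83 to 0.48 for cadmium in the wild type, -1.10 to 0.41 for mutant over wild type without cadmium, 0.39 to 0.54 with cadmium and 0.059 to 1.61 for the interaction. With the length trend removed the core medians were 0.27 for cadmium in the mutant, -0.21 for cadmium in the wild type, -0.21 for mutant over wild type without cadmium, 0.36 with it and 0.50 for the interaction. In deposited CPM the core sum of mutants with cadmium averaged 3381, against 3328 with TMM scaling.

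Some single genes changed sign. For cadmium in the wild type, plain library totals gave 0.11 for his-35, 0.12 for htz-1 and 0.12 for hil-5, and upper-quartile scaling gave 0.02 for each (0.017, 0.023 and 0.022). With the length trend removed, cadmium in the mutant gave -0.024 for hil-4, -0.11 for his-74 and -0.085 for his-72, and cadmium in the wild type gave -0.066 for his-72. With 1 library left out, cadmium in the mutant gave -0.15 to 0.30 for hil-4, -0.012 to 0.39 for hil-5, -0.055 to 0.82 for his-35, -0.18 to 0.49 for his-72, -0.19 to 0.51 for his-74 and -0.090 to 0.45 for htz-1. Cadmium in the wild type gave -0.21 to 0.10 for hil-5, -1.55 to 0.037 for his-16, -0.40 to 0.34 for his-35, -0.0017 to 0.32 for his-41, -0.88 to 0.28 for his-59, -1.13 to 0.24 for his-61, -0.16 to 0.22 for his-72 and -0.22 to 0.14 for htz-1. Mutant over wild type without cadmium gave -0.95 to 0.37 for his-59, -1.52 to 0.26 for his-67 and -0.16 to 1.06 for his-73. A library that stands alone in its group was assumed to vary like the other groups.

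Between groups, deviations of same-numbered libraries correlated at -0.595 (unexposed mutant and unexposed wild type) to 0.446 (wild type with and without cadmium). These correlations cannot decide whether the replicate numbers mark pairs or batches. The replicate block called 0 histone genes in each contrast, beside 0, 34, 12, 562 and 15 of all genes. Over all genes, calls without a low-count filter were 21, 576, 630, 1188 and 90, against 5, 45, 20, 674 and 18 with it, for cadmium in the mutant, cadmium in the wild type, mutant over wild type without and with cadmium, and the interaction. With 2 libraries a group, the median SE of the intron-free core genes was 0.51 in both cadmium contrasts, and no detection limit was measured.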
